A study of Mus musculus with 7 samples.

Results

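Mitochondrial ribosomal proteins were taken as the genes whose symbol begins with Mrpl (large subunit) or Mrps (small subunit) followed by a digit, as read from probes with a single gene symbol in the array's annotation. They numbered 69 of the 21515 genes measured, 41 of the large and 28 of the small subunit. Of these 68 were bright enough to be tested, 41 of the large and 27 of the small subunit. Mrps36, at 3.35, 3.57 and 3.53 log2 units in RRas2-deficient and 3.25, 3.54, 3.33 and 3.35 in WT samples, was too dim; its product is now counted as a subunit of the oxoglutarate dehydrogenase complex rather than of the ribosome. The genes Mrpl41, Mrpl43 and Mrpl44 shared their probes with another gene and were left out by the same rule.

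The study measured gene expression in germinal centre B cells, the B cells that proliferate and mutate their antibody genes in spleen and lymph nodes after immunization, by 1 Affymetrix array per sample. The 3 RRas2-deficient samples came from mice lacking RRas2, a small GTPase of the RAS family, and the 4 wild-type (WT) samples from mice without that deficiency. All mice of both genotypes were kept specific-pathogen-free and had received sheep red blood cells into the peritoneum 7 days earlier, and B220+CD95+GL7+ cells were sorted from the spleen. The titles and the genotype field name RRas2, whereas the free description of the same samples writes Rras. The strain, the age, the deleted part of the gene, the cells in which it is lost and any pooling of animals are not stated in these sources.

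Rras2 itself read 6.93, 6.68 and 7.12 log2 units in RRas2-deficient samples, against 7.13, 7.41, 8.66 and 8.39 in WT samples. No RRas2-deficient sample reached the lowest WT sample, although the closest pair lay almost together. The difference was -0.99 ± 0.39 (log2, SE, n = 3 and 4), with an exact two-sided permutation p of 0.114 where 0.0286 is the smallest possible, and an adjusted p of 1 in limma. The probe was not placed against the deleted part of the gene. The arrays also formed 2 sets by the interquartile range of their values, across genotype. The wider set held RRas2-deficient samples 1 and 3 and WT samples 3 and 4 (2.69 to 2.91 log2 units), and the narrower set RRas2-deficient sample 2 and WT samples 1 and 2 (2.37 to 2.49). Pairs of arrays correlated at 0.981 to 0.993 within a set and at 0.948 to 0.976 between sets; the sources used here do not say how the sets arose. WT sample 3 read 6.61 for Xist against 9.43 to 10.29 elsewhere, and 5.93 to 6.75 for Kdm5d, Eif2s3y and Uty of the Y chromosome against 3.08 to 4.97 elsewhere. The 8 markers measured for germinal centre B cells were Bcl6, Fas, S1pr2, Gcsam, Nuggc, Cd79a, Ms4a1 and Ptprc. Cd79a and Ms4a1 mark B cells in general, and Ptprc leukocytes in general. The 8 averaged 9.12 to 10.01 log2 units in RRas2-deficient and 9.18 to 10.29 in WT samples. T cell markers (5) averaged 3.82 to 4.04 and 3.76 to 4.63 in the same order. Plasma cell markers (5) averaged 6.75 to 7.19 and 7.02 to 7.40, and each had a lower mean in RRas2-deficient cells (48.3% of all genes). Macrophage, monocyte and dendritic markers (7) averaged 4.03 to 4.57 and 3.88 to 4.41, and the 6 tested all had a higher mean (8340 of 16136 genes). In these last 2 lists 0 genes had an unadjusted p under 0.05 in limma (0.818% of all genes). Sdc1 of the plasma cell list differed by 0.05 within the wider set. Of the 6 macrophage, monocyte and dendritic markers 2 were lower within the narrower set. The genotypes overlapped for every tested gene of all these marker lists.

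The mitochondrial ribosome, or mitoribosome, is built from RNAs encoded in mitochondrial DNA and from proteins that are all encoded in the nucleus, made in the cytosol and imported. It translates the few mitochondrial messages, which encode core subunits of the respiratory chain and of ATP synthase. Many of its proteins descend from bacterial ribosomal proteins and others occur only in mitochondria; germinal centre B cells divide fast and are known to raise their mitochondrial content.

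The promoters of 6 members are printed because the results turn on these genes. Mrpl42 and Mrpl32 differed most between the array sets, Mrpl12 had the lowest p between genotypes, Mrps27 had the lowest mean in RRas2-deficient cells relative to WT, and Mrps11 and Mrpl46 are head-to-head neighbours that behaved unlike each other. Each window runs from 250 bases before to 50 after the start of the gene, 5′ to 3′ on the gene's own strand, from RefSeq on GRCm38.p6. Capitals mark matches to the motifs that were searched for. Mrpl42 lies at chr10:95501900-95502199 on the minus strand, Mrpl32 at chr13:14612988-14613287 on the minus strand, Mrpl12 at chr11:120484387-120484686 on the plus strand, Mrps27 at chr13:99344536-99344835 on the plus strand, Mrps11 at chr7:78782881-78783180 on the plus strand and Mrpl46 at chr7:78783040-78783339 on the minus strand.
Mrpl42: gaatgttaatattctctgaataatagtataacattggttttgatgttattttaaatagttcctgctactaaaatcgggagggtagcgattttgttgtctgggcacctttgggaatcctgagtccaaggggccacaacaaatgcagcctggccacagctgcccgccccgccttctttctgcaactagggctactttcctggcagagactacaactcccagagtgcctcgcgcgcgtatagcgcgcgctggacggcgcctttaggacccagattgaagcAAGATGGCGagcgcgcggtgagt
Mrpl32: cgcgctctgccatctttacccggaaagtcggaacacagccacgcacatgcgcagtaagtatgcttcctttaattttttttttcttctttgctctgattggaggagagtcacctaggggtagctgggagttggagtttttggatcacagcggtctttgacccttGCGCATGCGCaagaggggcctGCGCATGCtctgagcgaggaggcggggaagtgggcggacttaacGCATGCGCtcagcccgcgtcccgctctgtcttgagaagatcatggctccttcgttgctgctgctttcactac
Mrpl12: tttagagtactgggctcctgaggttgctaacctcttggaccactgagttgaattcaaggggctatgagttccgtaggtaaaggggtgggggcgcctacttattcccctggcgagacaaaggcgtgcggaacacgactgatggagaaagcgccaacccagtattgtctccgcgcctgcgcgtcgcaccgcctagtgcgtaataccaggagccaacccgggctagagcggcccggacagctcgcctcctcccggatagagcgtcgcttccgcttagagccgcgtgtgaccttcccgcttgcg
Mrps27: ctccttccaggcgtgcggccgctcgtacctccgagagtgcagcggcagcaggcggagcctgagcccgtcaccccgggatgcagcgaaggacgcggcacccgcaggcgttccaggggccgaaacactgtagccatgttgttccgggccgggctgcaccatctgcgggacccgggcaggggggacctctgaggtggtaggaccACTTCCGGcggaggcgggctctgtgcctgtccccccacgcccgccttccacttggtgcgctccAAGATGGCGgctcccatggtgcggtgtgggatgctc
Mrps11: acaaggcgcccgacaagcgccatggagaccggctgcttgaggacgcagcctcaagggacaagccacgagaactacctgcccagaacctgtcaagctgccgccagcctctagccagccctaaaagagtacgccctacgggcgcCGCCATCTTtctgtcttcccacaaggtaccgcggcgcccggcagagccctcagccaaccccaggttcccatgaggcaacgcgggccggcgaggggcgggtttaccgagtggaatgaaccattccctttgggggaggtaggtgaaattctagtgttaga
Mrpl46: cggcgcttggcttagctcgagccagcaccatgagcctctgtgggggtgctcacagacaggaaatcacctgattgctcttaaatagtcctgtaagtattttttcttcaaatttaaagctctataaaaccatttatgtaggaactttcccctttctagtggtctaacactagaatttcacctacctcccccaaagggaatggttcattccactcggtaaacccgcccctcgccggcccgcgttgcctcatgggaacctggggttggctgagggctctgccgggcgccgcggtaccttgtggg
The capitals are AAGATGGCG (the YY1 motif) in Mrpl42, GCGCATGC or its reverse complement (the NRF1 motif) in Mrpl32, CCGGAAGT (an ETS family motif) as its reverse complement and AAGATGGCG in Mrps27, and AAGATGGCG as its reverse complement in Mrps11. The first run of capitals in Mrpl32 holds 2 overlapping matches, since the NRF1 letters overlap their own reverse complement. The windows of Mrpl12 and Mrpl46 held none of the 5 motifs.

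No mitochondrial ribosomal protein gene passed the test between genotypes. With limma and Benjamini-Hochberg adjustment over all 16136 genes tested, 0 of 68 members had an adjusted p under 0.05 (0.0124% of all genes), and 1 had an unadjusted p under 0.05 (0.818% of all genes). The mean in RRas2-deficient cells was higher than in WT cells for 40 members and lower for 28, where 48.3% of all genes were lower. The median difference was 0.05 log2 units over the members and 0.00 over all genes, and single members ran from -0.42 to 0.49. In 0 of 68 members were the genotypes free of overlap (1.08% of all genes). The median SD within a genotype was 0.39 log2 units over the members, against 0.20 over all genes, while the median size of a member's difference between genotypes was 0.11. The count of lower members moved with single arrays: it was 9 without RRas2-deficient sample 2, 43 without RRas2-deficient sample 3, 51 without WT sample 1, 44 without WT sample 2 and 11 without WT sample 3. In RNA of a sorted population, fewer cells of a type and less RNA per cell cannot be told apart.

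**Figure D1:**
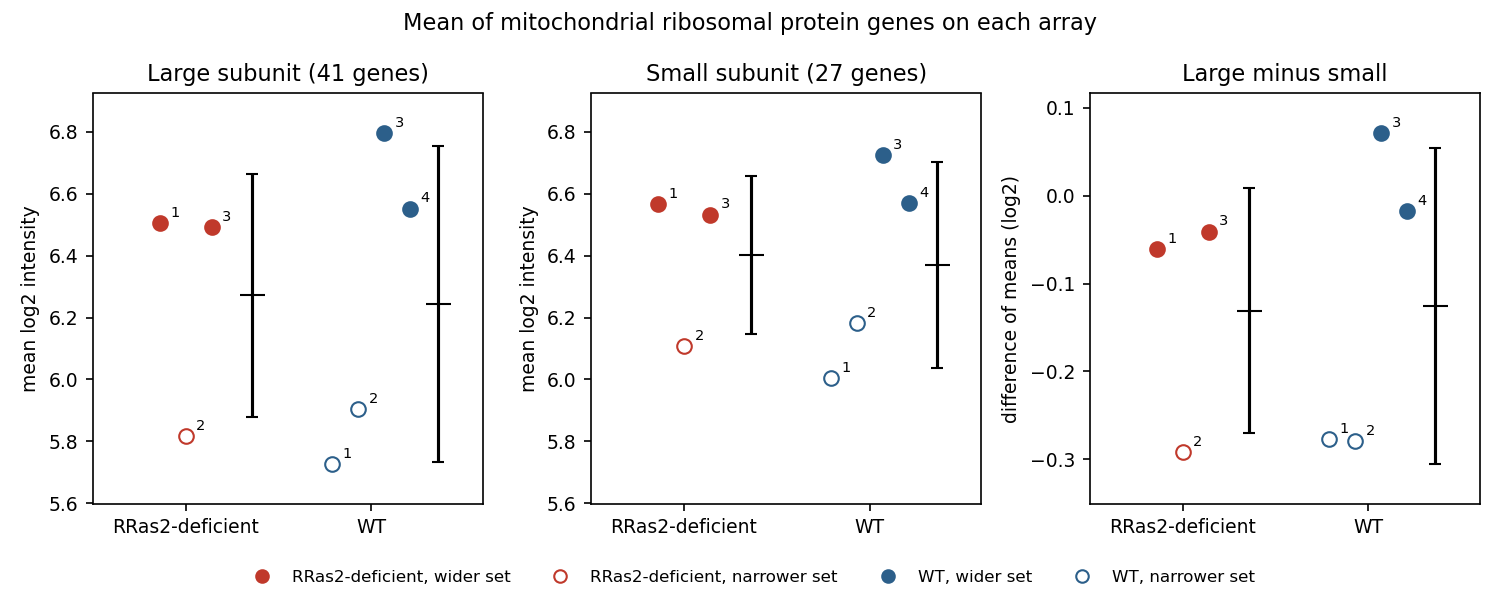
Mean log2 intensity of the tested members of the large subunit, of the small subunit, and the large minus the small mean (vertical axes, log2), with 1 point per array for RRas2-deficient and WT samples. Filled points are the wider array set, open points the narrower set, and bars the mean ± SD; the 3 open points lie below every filled point in each panel, whichever the genotype.

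The 2 subunits did not part between genotypes in the fit that left the array sets out. The large subunit had 23 members higher and 18 lower, with a median of 0.05, and the small subunit 17 higher and 10 lower, also with a median of 0.05 log2 units. The large-subunit mean was 6.51, 5.82 and 6.49 in RRas2-deficient samples, against 5.73, 5.90, 6.80 and 6.55 in WT samples. The small-subunit mean was 6.57, 6.11 and 6.53 in RRas2-deficient samples, against 6.004, 6.18, 6.72 and 6.57 in WT samples. In both subunits RRas2-deficient sample 2 and WT samples 1 and 2 were low and the other samples high. The large minus the small mean was -0.06, -0.29 and -0.04 in RRas2-deficient samples, against -0.28, -0.28, 0.07 and -0.02 in WT samples. Only the changes of this difference between arrays can be read, since probes differ in brightness. It averaged -0.13 ± 0.14 in RRas2-deficient and -0.13 ± 0.18 in WT samples (SD, n = 3 and 4). Placing Mrps30 and Mrps18a in the large subunit, where structures of the mammalian mitoribosome put them, gave medians of 0.05 for 43 large and 0.07 for 25 small members.

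Among the proteins of the stalk, the flexible arm that recruits translation factors, Mrpl12 stood highest. Mrpl12, the stalk protein proper and one reported to bind the mitochondrial RNA polymerase, read 5.48, 5.94 and 5.77 log2 units in RRas2-deficient samples, against 5.04, 5.49, 5.39 and 5.05 in WT samples. RRas2-deficient samples 2 and 3 were above every WT sample and RRas2-deficient sample 1 lay just under WT sample 2. The difference was 0.49 ± 0.17 (SE), or 1.40-fold (limma, unadjusted p = 0.0232, adjusted p = 1). Leaving out single arrays moved it between 0.38 and 0.62. The other stalk members, Mrpl10 and Mrpl11 at the stalk base and Mrpl54, differed by -0.05, -0.11 and 0.21.

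In the central protuberance, where the large subunit faces the head of the small one, 3 members were higher and 3 lower. Mrpl40, found only in mitochondria, read 7.57, 7.64 and 7.57 in RRas2-deficient samples, against 7.22, 7.57, 7.18 and 7.61 in WT samples, a difference of 0.20 ± 0.14 (log2, SE). WT samples 2 and 4 reached the RRas2-deficient level and WT samples 1 and 3 did not. Mrpl27, the relative of a bacterial protein beside the peptidyl transferase centre, read 4.83, 4.91 and 4.80 in RRas2-deficient samples, against 4.92, 4.77, 5.22 and 5.04 in WT samples. WT sample 2 lay below all RRas2-deficient samples and the other WT samples above, for a difference of -0.14 ± 0.12. Mrpl18, relative of the bacterial protein that binds 5S RNA, differed by -0.03, Mrpl38 by 0.09 and Mrpl55 by 0.02.

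Of the 6 proteins around the exit tunnel and the membrane side, where nascent chains leave towards the inner membrane, 2 were higher and 4 lower. Mrpl24, a relative of a bacterial tunnel protein, read 8.06, 7.35 and 7.80 in RRas2-deficient samples, against 7.92, 7.98, 8.20 and 8.19 in WT samples. RRas2-deficient samples 2 and 3 were below every WT sample and RRas2-deficient sample 1 was not. The difference was -0.34 ± 0.18 (log2, SE; limma, unadjusted p = 0.104, adjusted p = 1). Mrpl45, which attaches the mitoribosome to the membrane, differed by -0.03 and Mrpl22 by -0.09.

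The remaining large-subunit proteins with bacterial relatives had 11 of 16 members higher. Mrpl14, a protein of the face between the subunits, read 5.31, 5.31 and 5.47 in RRas2-deficient samples, against 5.14, 5.31, 5.31 and 5.31 in WT samples. RRas2-deficient samples 1 and 2 equalled 3 WT samples, and the difference was 0.10 ± 0.09. Mrpl1 differed by 0.28, Mrpl13 by 0.24 and Mrpl15 by -0.31.

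Among the 9 other large-subunit proteins that bacterial ribosomes lack, 5 were higher and 4 lower. Mrpl50 read 6.41, 5.71 and 6.41 in RRas2-deficient samples, against 6.15, 6.25, 6.83 and 6.67 in WT samples, a difference of -0.30 ± 0.24. RRas2-deficient samples 1 and 3 lay between the lower and the upper pair of WT samples, and RRas2-deficient sample 2 below all of them. Mrpl49 read 7.22, 5.50 and 7.29 in RRas2-deficient samples, against 5.93, 6.17, 8.01 and 7.63 in WT samples. It varied by more than 2 log2 units among the arrays of either genotype together, and its difference of -0.26 ± 0.68 turned to 0.32 without RRas2-deficient sample 2 and to 0.10 without WT sample 3. Mrpl58, a peptidyl-tRNA hydrolase built into the ribosome, differed by 0.20.

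In the small subunit, 12 of the 15 proteins with bacterial relatives were higher and 3 lower. Mrps2, the relative of a bacterial protein between the head and the body of the subunit, read 6.55, 6.64 and 6.48 in RRas2-deficient samples, against 5.79, 5.95, 6.50 and 6.48 in WT samples. WT samples 3 and 4 matched the RRas2-deficient samples and WT samples 1 and 2 were lower, for a difference of 0.38 ± 0.20 (limma, unadjusted p = 0.102, adjusted p = 1). Mrps9, whose bacterial relative touches the tRNA in the P site, read 7.11, 6.87 and 7.22 in RRas2-deficient samples, against 6.72, 6.97, 6.85 and 6.97 in WT samples. RRas2-deficient samples 1 and 3 were above all WT samples and RRas2-deficient sample 2 was not, and the difference was 0.19 ± 0.12.

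Mrps21 read 6.26, 5.77 and 5.92 in RRas2-deficient samples, against 5.51, 5.31, 6.13 and 5.91 in WT samples. RRas2-deficient sample 1 was above every WT sample, and all RRas2-deficient samples were above WT samples 1 and 2, for a difference of 0.27 ± 0.23. Mrps14, a head protein in bacteria, was dim at 3.67, 3.67 and 3.28 in RRas2-deficient samples, against 3.67, 3.72, 3.63 and 3.80 in WT samples. RRas2-deficient sample 3 alone stood below the WT range, and the difference was -0.17 ± 0.12. Mrps16 differed by 0.38 and Mrps28 by 0.25.

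The 10 small-subunit proteins counted as particular to mitochondria had 4 members higher and 6 lower. They include Mrps18b, 1 of the 6 lower, which takes a place of its own in the mitoribosome although it descends from a bacterial protein. Mrps27, a protein of the pentatricopeptide repeat type that binds RNA, had the lowest difference of all members. It read 5.36, 4.78 and 5.06 in RRas2-deficient samples, against 4.98, 5.16, 6.17 and 5.66 in WT samples. WT samples 3 and 4 were above all RRas2-deficient samples, whereas WT samples 1 and 2 lay among them. The difference was -0.42 ± 0.31 (log2, SE; limma, unadjusted p = 0.208, adjusted p = 1). Mrps34 differed by 0.11 and Mrps22 by -0.11.

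The 3 Mrps18 paralogues, descendants of a single bacterial protein, sit in different places: Mrps18a in the large subunit, Mrps18b and Mrps18c in the small one. Mrps18a read 8.04, 6.85 and 7.85 in RRas2-deficient samples, against 7.06, 7.36, 7.85 and 7.88 in WT samples, a difference of 0.04 ± 0.34 (log2, SE). Mrps18b read 7.46, 6.53 and 7.15 in RRas2-deficient samples, against 6.97, 6.94, 7.56 and 7.46 in WT samples, a difference of -0.19 ± 0.26. Mrps18c read 5.58, 4.69 and 5.42 in RRas2-deficient samples, against 4.92, 5.05, 5.99 and 5.91 in WT samples, a difference of -0.23 ± 0.35. In all 3 RRas2-deficient sample 2 was the lowest array and the genotypes overlapped. Without RRas2-deficient sample 2 the differences of Mrps18b and Mrps18c turned to 0.07 and 0.04.

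**Figure D2:**
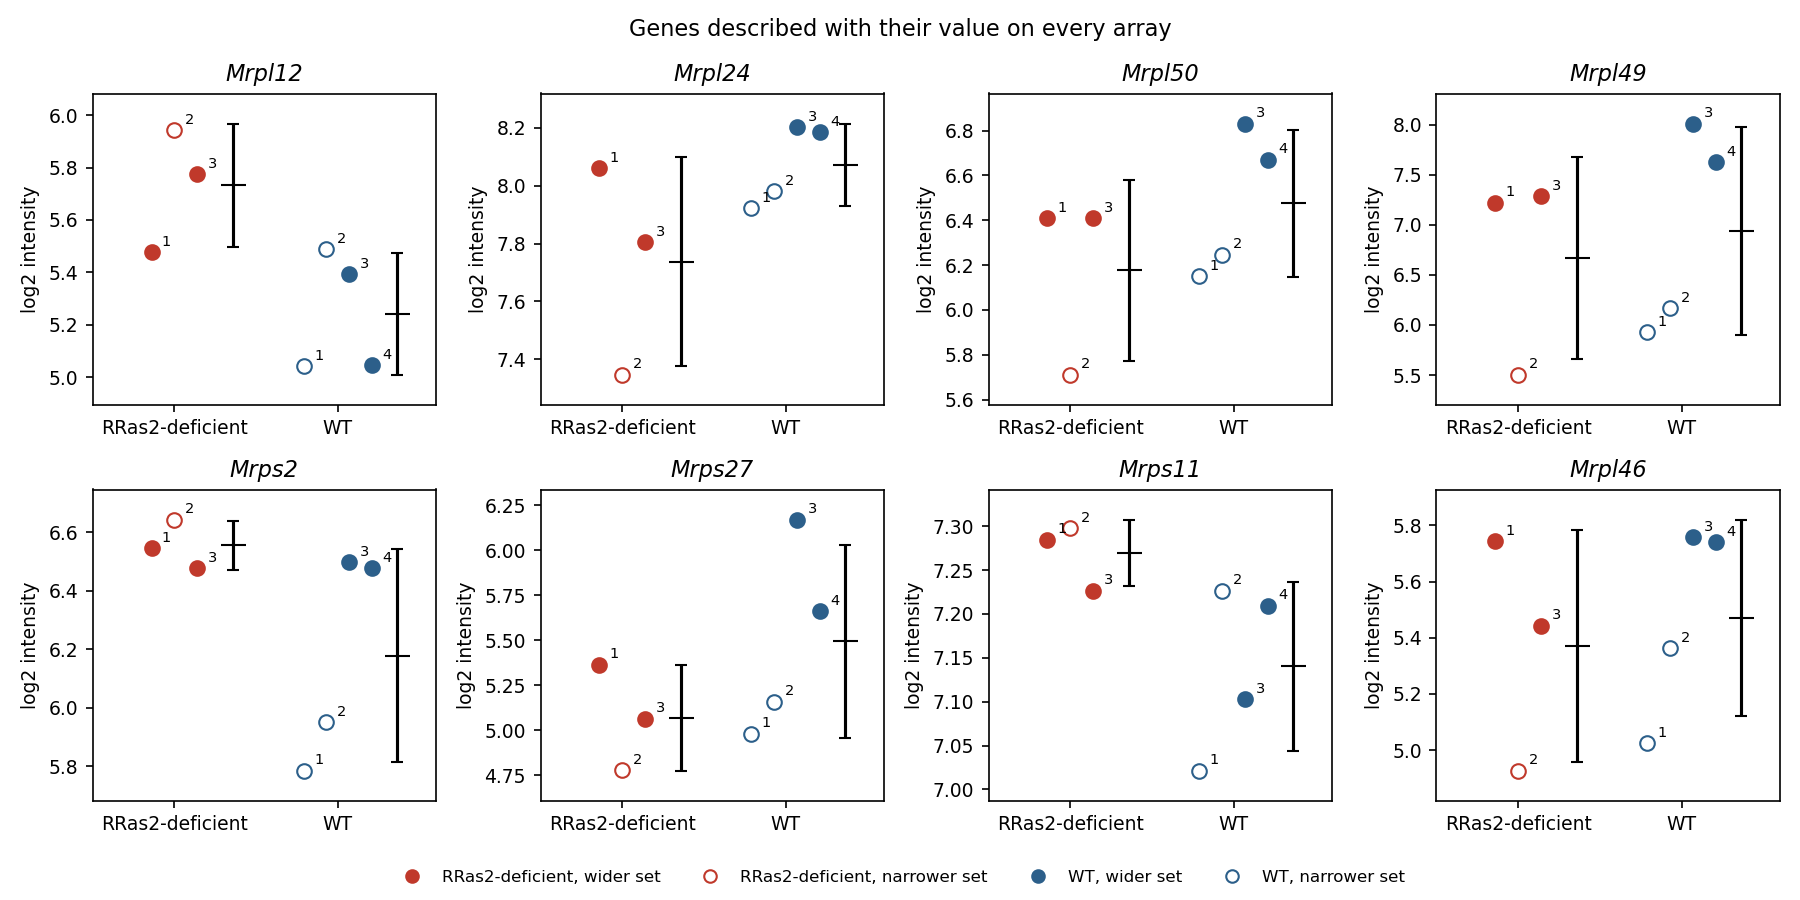
Log2 intensity (vertical axes, each with its own range) of 8 members on every array, RRas2-deficient and WT, with replicate numbers beside the points and the mean ± SD as bars. Filled points are the wider and open points the narrower array set; in Mrpl49 the open points lie at 5.50 to 6.17 and the filled ones at 7.22 to 8.01, whereas in Mrpl12 and Mrps11 the sets overlap.

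The array sets, not the genotypes, parted most members. In 50 of 68 members every array of the wider set read above every array of the narrower set (26.9% of all genes), and in 0 every wider array read below (13.6% of all genes). The median of wider minus narrower was 0.59 log2 units over the members, 0.74 in the large and 0.53 in the small subunit, against -0.02 over all genes. It exceeded 1 log2 unit in 14 of 68 members and in 1060 of 16136 genes. These are descriptions without a test, because the sets were drawn from the values themselves.

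The members with the largest shift, singled out after their values were seen, were Mrpl42, found only in mitochondria, and Mrpl32, a relative of a bacterial protein that is matured by a mitochondrial protease. Mrpl42 read 6.69, 4.98 and 7.39 in RRas2-deficient samples, against 5.20, 5.18, 7.36 and 6.78 in WT samples, which put the wider set 1.94 log2 units above the narrower set. Mrpl32 read 5.23, 3.72 and 5.27 in RRas2-deficient samples, against 3.35, 3.96, 5.45 and 5.55 in WT samples, a shift of 1.70. In both genes RRas2-deficient sample 2 and WT samples 1 and 2 were low, and the genotypes overlapped fully. Mrpl49 and Mrpl18 followed at 1.67 and 1.55, while Mrps14 at -0.09 and Mrpl12 at -0.07 had the lowest values. By role the median shift was 0.86 in the stalk, 0.39 in the central protuberance, 0.51 around the exit tunnel, 0.77 in the other large-subunit proteins with bacterial relatives and 0.90 in those that bacterial ribosomes lack. In the small subunit it was 0.37 for proteins with bacterial relatives and 0.59 for those counted as particular to mitochondria.

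**Figure D3:**
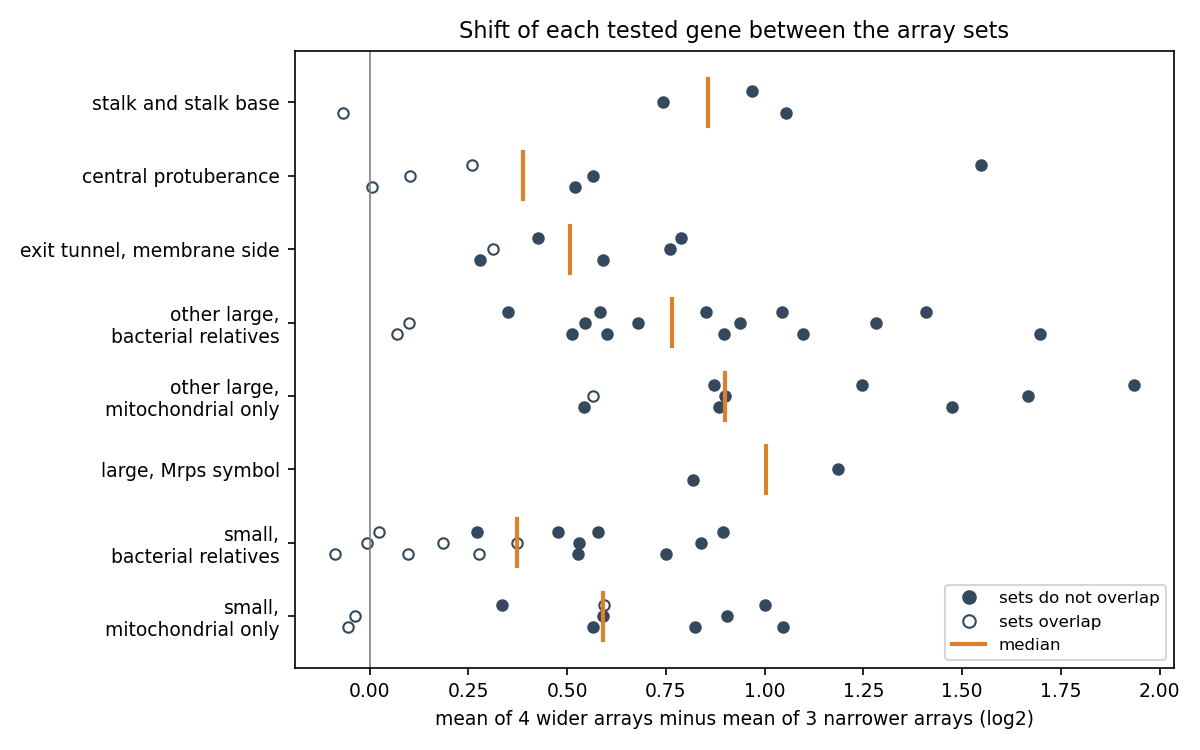
Mean of the 4 wider arrays minus mean of the 3 narrower arrays (horizontal axis, log2) for each tested member, in rows by role. Filled points are members whose array sets did not overlap and orange bars are medians; the points run from -0.09 to 1.94 and most lie right of 0.

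Other genes moved with the sets. Of 42 cytosolic ribosomal protein genes 22 had every wider array above every narrower one and 3 the reverse (26.9% and 13.6% of all genes), with a median shift of 0.40, and of 32 subunits of respiratory complex I 25 and 0, with a median of 0.77. The mean of the 8 markers measured for germinal centre B cells, among them the more general Cd79a, Ms4a1 and Ptprc, parted by set. It was 9.89 to 10.29 log2 units on the wider and 9.12 to 9.25 on the narrower arrays. Each of the 8 read higher on every wider than on every narrower array (26.9% of all genes). The 3 markers of resting follicular B cells (Fcer2a, Ccr7 and Klf2) averaged 7.38 to 8.04 on the wider and 8.70 to 9.38 on the narrower arrays. Ccr7 and Klf2 parted by set, whereas Fcer2a overlapped, at 9.83 to 10.88 on the wider and 10.37 to 10.64 on the narrower arrays. The 5 T cell markers averaged 3.76 to 4.03 on the wider and 4.04 to 4.63 on the narrower arrays. Of these 5, 2 read lower on every wider than on every narrower array (13.6% of all genes). Plasma cell markers overlapped in their mean, at 6.95 to 7.40 on the wider and 6.75 to 7.13 on the narrower arrays. So did macrophage, monocyte and dendritic markers, at 3.88 to 4.57 and 4.33 to 4.44. The 12 immediate early genes, which are switched on within minutes of stimulation or handling, averaged 6.45 to 7.29 on the wider and 7.77 to 8.17 on the narrower arrays. The part of these markers in the shift of the members was not tested.

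With the array set as a block in the fit, the directions of the members turned. Then 45 of 68 members were lower in RRas2-deficient than in WT cells (50.9% of all genes), with a median of -0.09 log2 units; 29 of 41 large members were lower with a median of -0.12, and 16 of 27 small members with a median of -0.01. Still 0 passed an adjusted p under 0.05 in limma (0.0124% of all genes), and 9 had an unadjusted p under 0.05 (10.1% of all genes). These were 8 lower members (6.24% of all genes), namely Mrpl18, Mrpl24, Mrpl49, Mrpl50, Mrps18b, Mrps18c, Mrps23 and Mrps27, and 1 higher member, Mrpl12 (3.89% of all genes). The 9 were read against the 10.1%, which they were near. A lower direction in the blocked fit was not particular to the members. There 24 of 32 complex I subunits were lower, with a median of -0.14 log2 units. Of 42 cytosolic ribosomal protein genes 24 were lower, with a median of -0.02. The 8 markers measured for germinal centre B cells were all lower, with a median of -0.17. With each array's interquartile range as a covariate instead, 22 of 68 members were lower (45.3% of all genes) and their median was 0.10. The direction of the members as a group thus depended on how the sets entered the fit. The directions by role, given above without a block, moved as well. Of 15 small-subunit proteins with bacterial relatives 12 were higher without a block, 8 with the block and 12 with the covariate. Of the 16 other large-subunit proteins with bacterial relatives 11 were higher without a block, 6 with the block and 12 with the covariate.

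Mrpl49 and Mrpl50 had the lowest blocked p of the large subunit, with differences of -0.56 ± 0.12 and -0.40 ± 0.08 (log2, SE) and an adjusted p of 0.296 for each in limma. Mrps18c and Mrps27 had the lowest of the small subunit, at -0.38 ± 0.09 and -0.54 ± 0.16, with adjusted p of 0.306 and 0.381. Mrpl12 stayed at 0.51 ± 0.16, with an adjusted p of 0.383, and Mrpl24 at -0.40 ± 0.11, with an adjusted p of 0.354.

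**Figure D4:**
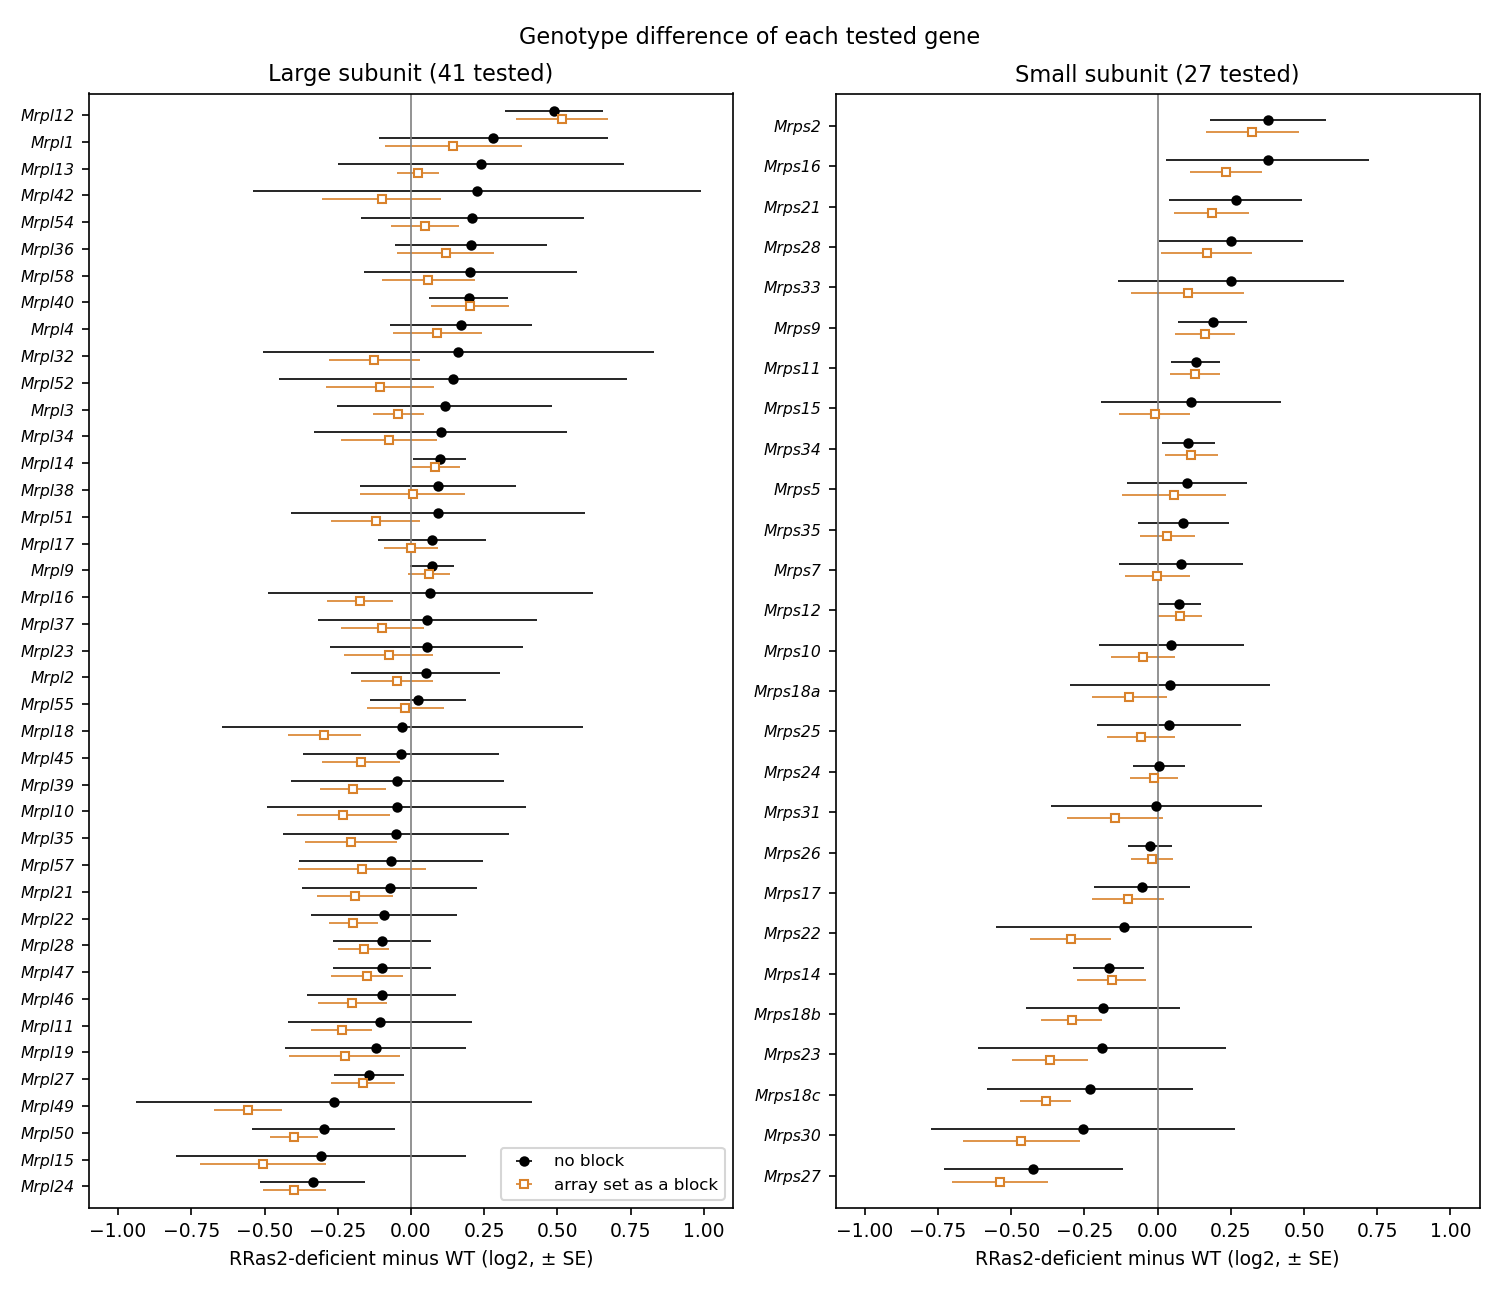
RRas2-deficient minus WT difference of every tested member (horizontal axis, log2, ± SE) without a block (black circles) and with the array set as a block (orange squares), large subunit left and small subunit right. The circles run from -0.42 to 0.49, the squares have shorter bars in most rows, and 45 of 68 squares lie left of 0.

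Within the wider set, 2 RRas2-deficient against 2 WT arrays, 48 of 68 members were lower (53.0% of all genes), with a median of -0.16 log2 units. These were 34 of 41 large members, with a median of -0.19, and 14 of 27 small members, with a median of -0.04. Within the narrower set, 1 RRas2-deficient against 2 WT arrays, 30 were lower (47.3% of all genes), with a median of 0.03. There 18 large and 12 small members were lower, with medians of 0.03 and 0.02. The difference between the subunits was not tested. Members lower in both sets numbered 25 (28.6% of all genes), those higher in both 15 (26.9% of all genes), and 28 went opposite ways. The 25 held 17 large and 8 small members, and the 15 held 6 large and 9 small members. Mrpl12 was higher in both, by 0.41 in the wider and 0.68 in the narrower set. Mrpl49 was lower in both, by -0.56 and -0.55, and Mrpl50 by -0.34 and -0.49. Mrps27 was lower by -0.70 and -0.29, whereas Mrps2 was higher by 0.02 in the wider and 0.77 in the narrower set.

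**Figure D5:**
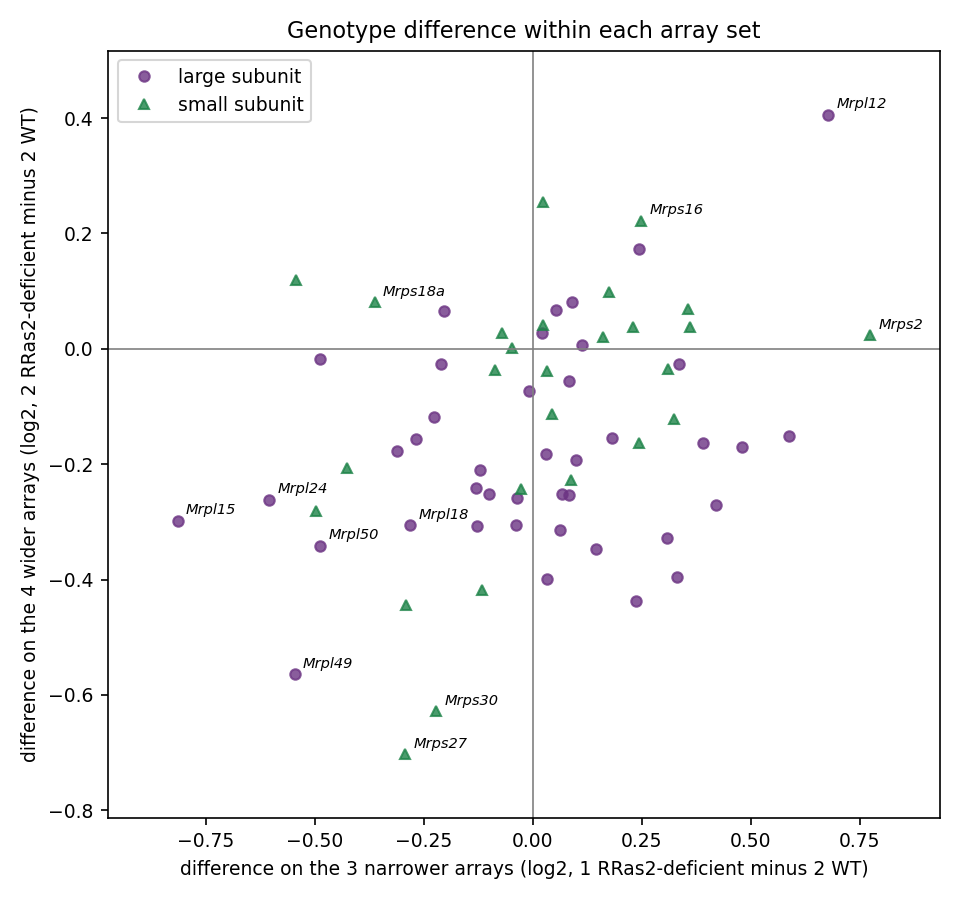
RRas2-deficient minus WT difference of each tested member on the 3 narrower arrays (horizontal axis, log2) and on the 4 wider arrays (vertical axis, log2), large subunit as circles and small subunit as triangles. The lower left field holds 25 members, the upper right field 15, and Mrpl12 and Mrps27 stand at opposite ends of the vertical axis.

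5 members lie on chromosome 7, as Rras2 does, at 124 to 988 measured genes from it. Mrpl17 and Mrpl23, both by the exit tunnel, differed by 0.07 ± 0.18 and 0.05 ± 0.33 (log2, SE). Mrpl17 read 6.63, 6.16 and 6.39 in RRas2-deficient samples, against 6.12, 6.04, 6.54 and 6.59 in WT samples. Mrpl23 read 5.80, 5.19 and 5.77 in RRas2-deficient samples, against 4.87, 5.31, 6.19 and 5.77 in WT samples. In both the genotypes overlapped over most of their range, and the sign turned when single arrays were left out. Mrps12, of the decoding site, read 6.21, 6.31 and 6.21 in RRas2-deficient samples, against 6.14, 6.17, 6.17 and 6.21 in WT samples, a difference of 0.07 ± 0.07.

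The other members there, Mrps11 and Mrpl46, are divergent neighbours whose starts lie 42 bases apart, so that the printed windows share 141 bases. Mrps11, of the platform, read 7.28, 7.30 and 7.23 in RRas2-deficient samples, against 7.02, 7.23, 7.10 and 7.21 in WT samples, a difference of 0.13 ± 0.08 (log2, SE). Mrpl46, of the central protuberance, read 5.74, 4.93 and 5.44 in RRas2-deficient samples, against 5.03, 5.36, 5.76 and 5.74 in WT samples, a difference of -0.10 ± 0.26 that turned to 0.12 without RRas2-deficient sample 2. Mrps11 varied little and its array sets overlapped, with a shift of 0.02, while Mrpl46 followed the sets, with a shift of 0.57.

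4 members had a further probe. Mrpl36, read on 5.40, 4.85 and 4.92 in RRas2-deficient and 4.46, 4.57, 5.41 and 4.96 in WT samples, differed by 0.21 ± 0.26 and by 0.05 on the dimmer probe. Mrps17, read on 5.86, 5.76 and 5.86 in RRas2-deficient and 5.61, 5.73, 6.29 and 5.89 in WT samples, differed by -0.05 ± 0.17 and by 0.06 on the dimmer probe, so the signs disagreed. Mrps18b gave -0.19 and -0.02, and Mrps18c -0.23 and -0.21. The shift between the array sets was 0.84 on the brighter and 0.05 on the dimmer probe of Mrps18c, and 0.54 and -0.07 on those of Mrpl36. It was 0.27 and 0.12 on the probes of Mrps17, and 0.59 and 0.51 on those of Mrps18b.

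Around the mitoribosome, no gene of the companion lists had an adjusted p under 0.05 in limma, with or without the block. Of 13 mitochondrial translation factors 2 were higher and 11 lower, and in the fit blocked by array set 13 of 13 were lower, 6 of them at an unadjusted p under 0.05 (6.24% of all genes), with a smallest adjusted p of 0.356. With the interquartile range as a covariate instead, 8 of the 13 were lower (45.3% of all genes). In that limma fit 0 of the 13 had an unadjusted p under 0.05 (759 of 16136 genes), so the 6 depended on how the sets entered the fit. Among the 13 factors Taco1, an activator of the synthesis of a cytochrome oxidase subunit, differed by -0.15, the initiation factor Mtif3 by -0.18 and the release factor Mtrf1l by -0.23 without the block. Of 24 assembly and rRNA modification genes 12 were higher and 12 lower, with Mterf4 at 0.22, Ybey at 0.29 and Eral1 at -0.36, and in the blocked fit 14 of 24 were lower. Of 16 mitochondrial tRNA synthetases 11 were higher and 5 lower, with Wars2 at 0.19, Sars2 at 0.17 and Ears2 at 0.12 as those of lowest p. The largest difference in that list, named after its value was seen, was Iars2 at -0.24, and in the blocked fit 10 of 16 were lower. Of the other mitoribosomal proteins, which carry unrelated symbols, Dap3 differed by 0.01, Gadd45gip1 by 0.13 and Ptcd3 by -0.29.

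Promoter windows were matched for 60 of 69 members, by gene ID. A gene counted as holding a motif if any of its windows held it, on either strand. Shares are set against all 27025 genes with a window and then against the tested genes among them. Of the members 8 held AAGATGGCG (13.3%, against 1.64% and 2.69%) and 9 held CCGGAAGT (15%, against 4.31% and 7.03%). GCGCATGC was in 7 (11.7%, against 3.05% and 4.91%) and the E-box CACGTG in 4 (6.67%, against 8.09% and 10.5%). CTCGCGAG, the M8 element, was in 2 (3.33%, against 1.04% and 1.69%). At least 1 of the 5 motifs was in 26 of 60 members (43.3%, against 16.2% and 23.6%), and matches of different motifs shared bases in 0 member promoters. Of the members whose array sets did not overlap 19 of 42 held a motif (45.2%), and of the others 7 of 17 (41.2%). These are counts of letters in windows, without a test.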

How the data were processed

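RNA of 7 samples was extracted with Trizol and labelled with biotin, per the labels' protocols. The values deposited by the authors are log2 intensities per probe set; RMA (background correction, quantile normalization and probe summary) and the package oligo are named in the submitters' processing notes. Neither version nor the genome build behind the annotation is given in the sources used here, and no scanner file was analysed here. Precision is limited by the number of arrays, and p-values measure the spread between samples that the labels call biological replicates without naming animals.

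Of 25349 probes 22225 had 1 gene symbol, 616 several and 2508 none. The brightest probe by mean over the 7 arrays was kept per gene, and 5379 of 21515 genes were left out as dim (mean below 3.48, the 25th percentile). All 69 members were found by gene ID in the RefSeq table (GRCm38.p6) and 0 symbols differed. Genes were tested with limma 3.58.1 (lmFit, eBayes; R 4.3.3, statmod 1.5.0), RRas2-deficient minus WT, two-sided, with no covariate, and checked on simulated data. The split between array sets, at an interquartile range of 2.59, is the largest gap (0.197). Members, roles, motifs and lists were chosen with earlier results of these data known, so lists are given by counts and medians only. Members named with all their values are, in each subunit, the 6 of lowest p, the 2 of lowest p once blocked by array set, the Mrps18 paralogues, members with several probes and members on chromosome 7; Mrpl42 and Mrpl32 were added for their shift between array sets, after their values were seen. Replicate numbers were checked for pairing: deviations of same-numbered samples correlated at -0.59, 0.78 and 0.66, so the numbers were not taken to pair samples. Alternatives changed the filter, probe rule, normalization, variance model, array weights, array sets, replicate block and samples.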

Additional observations from a re-analysis of the deposited data

Results flagged for a closer look

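Mrpl14 in the 4 WT samples was picked out because 1 sample stood apart: WT sample 1 read 5.14 and the other 3 all 5.31, so the gap took up the whole range (a ratio of 1, past Dixon's critical value for 4 samples). RRas2-deficient samples 1 and 2 also read 5.31. With 3 of 4 values equal, any different value gives a ratio of 1, so the ratio cannot say how far WT sample 1 stood apart. Values equal on at least 2 arrays were common, in 11277 of 21515 genes. Among 27 values looked at, 1 passed. The rate of about 1 in 20 flagged by chance holds for values without ties and does not apply here.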

How the results depend on the processing

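No member passed an adjusted p under 0.05 in limma under any alternative run, and Rras2 was lower in RRas2-deficient samples in all of them (-1.50 to -0.59). The number of members with a lower mean, 28 of 68, became 45 with the sets as a block and 48 in the wider set alone, and ranged from 9 to 51 when 1 array was left out, and from 34 to 51 with the block as well, an alternative chosen after seeing the data. The median of the large minus that of the small subunit, 0.01 log2 units, became -0.16 in the wider set alone; it ranged from -0.12 to 0.04 without 1 array and from -0.16 to -0.07 with the block as well. Signs turned for Mrps17 (0.0020 as a mean over probes, 0.087 in the narrower set), Mrpl17 (-0.040 with array weights, -0.055 in the wider set), Mrpl23 (-0.013 with array weights, -0.076 with the block, -0.19 in the wider set), Mrps18a (-0.10 with the block, -0.36 in the narrower set), Mrpl36 (-0.026 in the wider set) and Mrpl27 (0.063 in the narrower set). Leaving out 1 array gave ranges across 0 for Mrps18a (-0.19 to 0.41), Mrpl17 (-0.046 to 0.19), Mrpl23 (-0.17 to 0.27), Mrpl49 (-0.60 to 0.32), Mrps18c (-0.41 to 0.037), Mrps18b (-0.39 to 0.069), Mrpl46 (-0.29 to 0.12) and Mrps17 (-0.14 to 0.082). In the blocked fit they were -0.19 to 0.081 for Mrps18a, -0.055 to 0.075 for Mrpl17, -0.19 to 0.058 for Mrpl23, -0.23 to 0.029 for Mrps17, -0.65 to -0.46 for Mrpl49, -0.44 to -0.33 for Mrps18c and -0.026 to 0.27 for Mrpl36. The cause was not tested. Members at an unadjusted p under 0.05 in limma were 1 of 68 in the main fit (0.818% of all genes). With the block they were 9 (10.1% of all genes), 8 lower and 1 higher. The covariate also gave 9 (759 of 16136 genes), but 3 lower and 6 higher. They were 2 after a further quantile normalization, 6 with array weights and 11 in the wider set alone. Leaving out 1 array gave 0 to 2, and 6 to 13 in the blocked fit. For these other settings the shares of all genes are not given here, so their counts cannot be set against a background.

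With the replicate block 19 of 68 members were lower, the median was 0.11 and the subunits' medians differed by 0.02. In that limma fit 2 members had an unadjusted p under 0.05, and Rras2 differed by -0.82. The shares of all genes in that fit are not given here, so the 19 and the 2 cannot be set against a background. WT sample 4 has no partner, and no call changed. The best partner of a sample did not always bear its own number. With 3 and 4 arrays, and SDs near 0.39 log2 units within a genotype, small differences of single members cannot be seen.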
